A study of Mus musculus with 4 samples.

Results

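Ccl2, Ccl7, Ccl8 and Ccl12 are 4 chemokine genes of 1 gene cluster on mouse chromosome 11, and their counts were read from 5420 colonic monocytes and macrophages sequenced as single cells. They were picked by symbol, as 4 of 11820 genes in the count matrix, with their values by diet and along Ly6c2, MHC II and C1q already known. All values of the 4 genes by diet and cell class are therefore a description, without p-values. The cells came from male C57/Bl6N mice of 6 to 7 weeks. A pair of mice (chow 9 and chow 11) stayed on normal chow, and another pair (HFD 1 and HFD 3) received a coconut-based high-fat diet (HFD, 60%) for 1 week. Lamina propria cells that were live, CD45+, lineage-negative, CD11b+ and CD24-, and positive for Ly6C or CD64, were sorted, and each mouse filled 1 well of a droplet-based 3' kit. Shares of cells given here are shares of this gate, which selects on Ly6C. With 2 mice per diet, an exact permutation test cannot go below p = 0.33.

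Chemokines are small secreted proteins that draw leukocytes along a concentration gradient. Ccl2, Ccl7 and Ccl12 are ligands of Ccr2, the receptor that Ly6C-high monocytes use to leave the bone marrow and enter inflamed tissue, while mouse Ccl8 is best known as a ligand of Ccr8. In the colon, Ly6C-high monocytes enter the lamina propria continuously, acquire MHC II and then mature into macrophages that express C1q, the first component of the classical complement pathway. Levels along Ly6c2, MHC II and C1q therefore place chemokine transcripts along this maturation series.

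On GRCm38, all 4 genes lie on the + strand of chromosome 11 within 81.2 kb. Ccl2 (ENSMUSG00000035385) runs from 82035571 to 82037453, Ccl7 (ENSMUSG00000035373) from 82045712 to 82047525, Ccl12 (ENSMUSG00000035352) from 82101845 to 82103400 and Ccl8 (ENSMUSG00000009185) from 82115185 to 82116799. Ccl11, the eosinophil attractant gene, sits between Ccl7 and Ccl12, at 82057823 to 82062955. It had 18 UMIs (unique molecular identifiers, each counting 1 captured transcript) in 13 cells. No 31-base word of the 4 genes' annotated transcripts occurred in a transcript of another gene on either strand, so the pseudo-alignment could tell these related genes apart.

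The RefSeq promoter table of GRCm38.p6 held 2 of the 4 genes, Ccl12 and Ccl8, the pair whose levels were most alike among the 4 genes over the cell sums described further on. The 250 bases before each start are shown to let both be compared, with capitals marking a TATAAA motif and the longest run of bases shared by both. The first covers chr11:82101595-82101844 and the second chr11:82114935-82115184, both on the + strand.
Ccl12: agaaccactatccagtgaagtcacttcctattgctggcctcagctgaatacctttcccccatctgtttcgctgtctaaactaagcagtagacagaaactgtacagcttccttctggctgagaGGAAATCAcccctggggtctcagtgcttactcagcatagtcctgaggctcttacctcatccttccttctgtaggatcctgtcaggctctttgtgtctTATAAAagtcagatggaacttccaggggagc
Ccl8: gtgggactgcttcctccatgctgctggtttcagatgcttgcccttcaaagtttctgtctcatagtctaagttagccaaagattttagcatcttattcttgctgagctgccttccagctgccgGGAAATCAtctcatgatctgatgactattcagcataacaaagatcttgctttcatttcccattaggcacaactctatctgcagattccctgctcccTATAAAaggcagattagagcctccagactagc

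Both sequences matched at 150 of 270 aligned columns (55.6%), gaps counted as columns. The marked run GGAAATCA began at -128 from the start in both, and the shared runs tcagcata and TATAAAag were as long. TATAAA began at -31 in Ccl12 and at -32 in Ccl8, a motif found on either strand in 12.4% of 32851 promoters of the table. The PU.1 core GAGGAA was present in Ccl12 at -130, where it overlaps GGAAATCA, and on the reverse strand at -240 in Ccl8, against 23.3% of all promoters. The letters of an AP-1 site (TGANTCA), a STAT site (TTCNNNGAA), an interferon response element (GAAA and GAAA with 2 bases between) and an NF-kB frame (GGGA and CC with 4 bases between) were found in neither window on either strand. They occurred in 6.75%, 7.02%, 2.98% and 17.6% of all promoters, respectively. A match or its absence is a description of letters, and says nothing about binding.

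The libraries held 904 and 2002 cells on chow and 966 and 1548 on HFD, with median depths of 3266 to 3926 UMIs per cell. In all, 23 cell barcodes occurred in more than 1 library (46 cells). Cells were divided by cuts on UMIs per 10000 UMIs of the cell, which give ranges and not cell types. C1q (C1qa, C1qb and C1qc) was low under 20, mid from 20 and high from 80, and C1q-low cells were split by a Ly6c2 UMI and by an MHC II sum of 200. The C1q cut at 80 had 371 cells (6.85%) within 25% of it. C1q-high cells made up 79.6% and 87.8% of the chow libraries and 34.4% and 28.1% of the HFD libraries, and Ly6c2+ MHC II-low cells 7.30% and 3.20% against 28.7% and 20.8%. The summed level of 8 monocyte markers was 15137 to 27597 CPM (UMIs per 1000000 UMIs of the sum) in Ly6c2+ MHC II-low cells and 301 to 2387 CPM in C1q-high cells, and that of 11 measured resident macrophage markers was 584 to 1900 CPM and 19074 to 25960 CPM. Ly6c2 and the C1q genes are among these markers, so these contrasts were partly fixed by the cuts. Of markers not used in the cuts, Plac8 was at 5978 to 13460 against 48.3 to 1331 CPM, and Cd81 at 49.3 to 322 against 1055 to 3687 CPM. Markers of B and plasma cells (3 of 4 measured, nearly all of it Igha and Jchain) stood apart by diet in C1q-mid cells, at 59636 and 57509 CPM on chow, against 112 and 113 CPM on HFD, and also in Ly6c2+ MHC II-low cells, at 40599 and 28529 against 8800 and 6993 CPM. In C1q-high cells they were at 99.8 to 957 CPM.

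Ccl7 and Ccl12 were the members found in most cells, and Ccl2 was rarely detected. Over all libraries, Ccl12 had 10271 UMIs in 1566 cells (28.9%), Ccl7 9328 UMIs in 1498 cells (27.6%) and Ccl8 4210 UMIs in 715 cells (13.2%). Ccl2, the member most often measured as the monocyte attractant, had 120 UMIs in 95 cells (1.75%), never more than 4 in a cell. The 3' kit counts each transcript once whatever its length, and CPM of different genes are set side by side on that basis. Ccl2 did not reach the filter of a UMI in 5% of cells in any fit, and was followed by its counts alone.

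C1q-high macrophages held most of these transcripts. Of the UMIs of all 4 genes together, C1q-high cells supplied 94.7% and 96.3% on chow and 82.5% and 84.7% on HFD, as the stacked plot by mouse shows. For Ccl8 the share was 100% and 97.4% on chow and 92.0% and 93.0% on HFD. For Ccl7 it was 90.2% and 94.0% on chow and 81.9% and 77.6% on HFD, and for Ccl12 99.0% and 98.4% against 80.9% and 80.6%. On HFD, where C1q-high cells were the minority of the sorted cells, they thus still held at least 77.6% of the UMIs of Ccl7, Ccl8 and Ccl12. Ccl2 was the exception, with 81.8% and 96.4% of its UMIs in C1q-high cells on chow but 40.9% and 30.8% on HFD, from 22 to 44 UMIs per mouse.

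**Figure D1:**
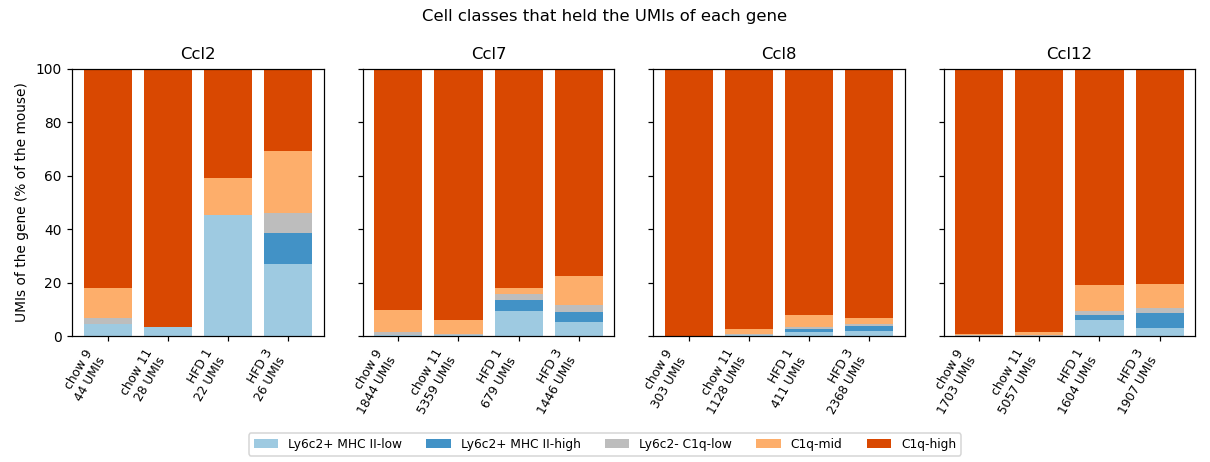
Share of each gene's UMIs (in percent, y axis) held by each of 5 cell classes in each mouse (x axis, with the gene's UMIs in that library). C1q-high cells held at least 77.6% of the Ccl7, Ccl8 and Ccl12 UMIs in every mouse, and 30.8% to 96.4% of the few Ccl2 UMIs.

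Within mice, Ccl7, Ccl8 and Ccl12 were higher in C1q-high than in Ly6c2+ MHC II-low cells. Ccl8 was at 0, 19.5, 5.47 and 44.4 CPM in the Ly6c2+ MHC II-low cells of chow 9, chow 11, HFD 1 and HFD 3, and at 92.0, 151, 271 and 1099 CPM in their C1q-high cells. Ccl12 went from 14.3, 63.3, 87.6 and 64.0 CPM to 512, 683, 929 and 767 CPM, and Ccl7 from 47.8, 122, 58.4 and 78.4 CPM to 505, 692, 398 and 560 CPM. The C1q-high level lay above the Ly6c2+ MHC II-low level of the same mouse for each of these 3 genes in all 4 mice. In the fit with mouse as a term, the log2 difference was 4.86 ± 0.30 (SE) for Ccl8, 3.75 ± 0.21 for Ccl12 and 2.95 ± 0.17 for Ccl7. All 3 passed an FDR of 1% in that fit, in which 20.3% of the 5067 genes tested did (10.4% higher and 9.99% lower in C1q-high cells), and since the genes were chosen along this axis nothing is read from that count. Ccl2 showed no such order, with 9.57, 4.87, 9.12 and 7.22 CPM in Ly6c2+ MHC II-low cells and 10.9, 3.71, 6.45 and 3.99 CPM in C1q-high cells.

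**Figure D2:**
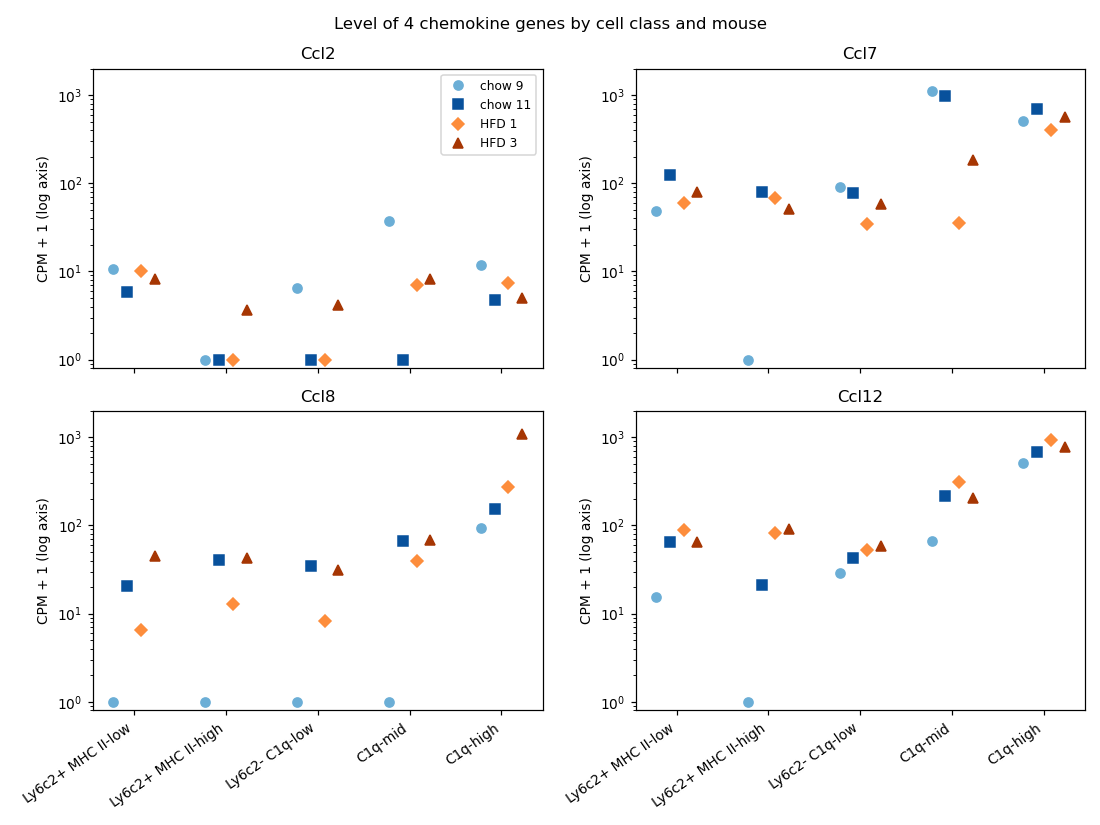
CPM plus 1 (log y axis) of each of the 4 genes in 5 cell classes (x axis), 1 point per mouse. Ccl8 and Ccl12 were highest in C1q-high cells in all 4 mice, reaching 1099 and 929 CPM, while Ccl7 on chow was higher in C1q-mid cells (1121 and 971 CPM) than in C1q-high cells (505 and 692 CPM) and Ccl2 stayed under 37 CPM.

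In Ly6c2+ MHC II-low cells the UMIs were spread thinly. There, 15.2%, 42.2%, 27.8% and 33.2% of cells in chow 9, chow 11, HFD 1 and HFD 3 had a UMI of any member, but a cell with a Ccl8 UMI held 1.00 to 1.16 on average and a cell with a Ccl7 UMI 1.39 to 1.85. In C1q-high cells, a cell with a Ccl7 UMI held 6.31 to 10.2 on average, although its median was 1 or 2. Cells with at least 10 Ccl12 UMIs made up 6.25% to 9.20% of C1q-high cells, and 0% to 0.722% of Ly6c2+ MHC II-low cells. Free RNA in droplets can place single UMIs in cells that do not express a gene. Deposited cells of types that should lack these genes, such as those rich in Igha and Jchain, were few. This background was therefore not measured. The mixture of members differed between both classes in the HFD mice, where Ccl8 was 3.41% and 22.9% of the members' UMIs in Ly6c2+ MHC II-low cells and 16.9% and 45.2% in C1q-high cells.

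Along finer steps of C1q, Ccl12 and Ccl8 were higher in the highest step than in the lowest in all 4 mice. Between these steps, both genes dipped in both chow mice, and Ccl12 also dipped in HFD 1. Ccl8 in both HFD mice, and Ccl12 in the other HFD mouse, rose at every step. In chow 9, Ccl8 was at 148 CPM from 200 to 260 and at 98.2 CPM in the highest step. In cells with at least 260 C1q UMIs per 10000, Ccl12 reached 2573 and 2099 CPM on HFD against 628 and 1040 CPM on chow, from 45 to 259 cells per mouse. In cells with 80 to 140 C1q UMIs the order was the other way round, with 56.6 and 293 CPM on HFD and 342 and 702 CPM on chow. Ccl12 thus did not have 1 diet difference across C1q levels, and in the step from 140 to 200 both diets overlapped, at 785 and 526 against 663 and 561 CPM. The share of cells with a Ccl12 UMI was higher in the highest step than in the 80 to 140 step, at 63.3% and 68.9% against 11.01% and 20.1% on HFD, and at 41.4% and 44.4% against 28.0% and 38.1% on chow. In the 140 to 200 step these shares did not overlap between diets, at 41.0% and 42.3% on chow, against 31.5% and 34.6% on HFD.

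Ccl8 lay higher in both HFD mice than in both chow mice in each of the 4 steps from 80 upwards. The share of all genes with such an order was not counted for any C1q step. In C1q-high cells as a whole it was 38.1% of 5103 genes. In the highest step it was at 680 CPM in HFD 1 and 3365 CPM in HFD 3, against 98.2 and 320 CPM on chow. In the step from 200 to 260 it was at 282 and 2460 CPM against 148 and 177 CPM. The separation between diets in C1q-high cells was thus also present among cells of like C1q level. HFD 3 stood far above HFD 1 in both of these steps.

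Ccl7 had another course. On chow it was already at 1121 and 971 CPM in C1q-mid cells, fell to 338 and 471 CPM in the step from 140 to 200, and was at 1145 and 986 CPM in the highest step. On HFD it stayed at or under 222 CPM up to 140 C1q UMIs and reached 1289 and 1952 CPM in the highest step. In the highest step Ccl7 was therefore above both chow mice in both HFD mice, and in the C1q-mid step below both. The highest step held 49 and 45 cells on HFD. In C1q-mid cells on chow, 1 cell held 69 of 155 UMIs in chow 9 and 1 cell 89 of 283 in chow 11. How many genes had such an order was not counted.

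**Figure D3:**
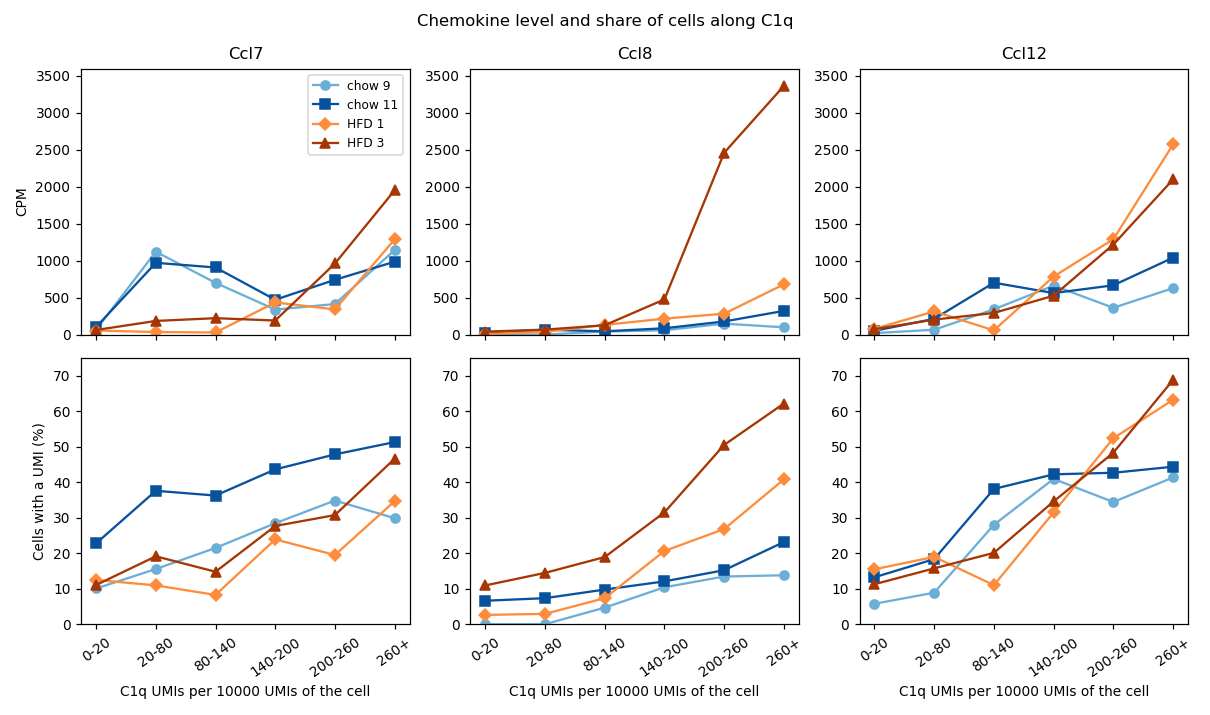
Level in CPM (top row, y axis) and percent of cells with a UMI (bottom row, y axis) of Ccl7, Ccl8 and Ccl12 in 6 steps of C1q UMIs per 10000 UMIs (x axis), 1 line per mouse. Levels of Ccl8 and Ccl12 were higher in the highest than in the lowest step in every mouse. Dips lay between in both chow mice for both genes and in HFD 1 for Ccl12. In the highest step Ccl12 was at 2573 and 2099 CPM on HFD and 628 and 1040 CPM on chow. Ccl7 on chow was already near 1000 CPM at 20 to 80.

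MHC II divided the C1q-high cells of chow mice. With an MHC II sum under 500 per 10000 UMIs, Ccl7 was at 2606 and 2927 CPM in chow 9 and chow 11 (63 and 179 cells). From 500 to 1000 it was at 481 and 700 CPM, and from 1000 upwards at 223 and 346 CPM. Ccl12 fell over the same steps from 1394 and 1316 to 354 and 589 CPM and Ccl8 from 232 and 615 to 70.0 and 58.6 CPM. All 3 genes were thus highest in the MHC II-poorest C1q-high cells of both chow mice. On HFD this order was not seen in both mice. Ccl7 was at 1548, 211 and 536 CPM over the 3 steps in HFD 1 and at 412, 525 and 652 CPM in HFD 3, where the lowest step held 22 and 26 cells.

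Among C1q-low cells, neither Ccl7, Ccl8 nor Ccl12 had an order along Ly6c2 that held in all 4 mice. Ccl7 was at 34.0 to 89.1 CPM over the 4 mice in C1q-low cells without a Ly6c2 UMI and at 0 to 135 CPM in those with at least 30 Ly6c2 UMIs per 10000, and the ranges overlapped. Ccl12 was at 27.8 to 57.3 CPM and 0 to 110 CPM in the same cells, and Ccl8 at 0 to 33.7 CPM and 0 to 56.9 CPM. Ccl2 was higher in Ly6c2+ MHC II-low cells, at 9.57, 4.87, 9.12 and 7.22 CPM, than in C1q-low cells without Ly6c2, at 5.57, 0, 0 and 3.18 CPM, in all 4 mice, from at most 10 UMIs in a sum. Both ends rest on few counts, since the highest step held 9 and 19 cells on chow. Over MHC II, Ccl7 in C1q-low cells was at 62.5 to 118 CPM under 50 MHC II UMIs per 10000 and at 37.0 to 78.8 CPM from 600 upwards. It was lower at the upper end in all 4 mice, with overlapping ranges, and fell at every step in chow 11 only.

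Among C1q-high cells, those with a UMI of Lyve1 or Cd163, genes of long-lived tissue macrophages, had the most Ccl7 on chow. They numbered 40 and 171 cells and held Ccl7 at 2343 and 2111 CPM (mean 2227 ± 164, SD, n = 2), with a UMI in 59.8% ± 13.9 of cells. C1q-high cells with Cd4 but neither of those genes had 504 and 471 CPM, and the remaining C1q-high cells 343 and 576 CPM. The Lyve1+ or Cd163+ cells were 4.42% and 8.54% of the chow libraries but held 23.4% and 26.6% of all Ccl7 UMIs. On HFD only 6 and 3 such cells were found, too few for a level. Ccl12 was also higher in them on chow, at 743 and 1306 CPM, than in the remaining C1q-high cells, at 395 and 628 CPM. In chow 11 these cells held more Igha and Jchain (3356 and 2037 CPM) than in chow 9 (152 and 108 CPM), whose part in the result was not tested. The Ccl7 level was nearly the same in both mice.

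By diet, Ccl7 was lower on HFD over all sorted cells, Ccl12 somewhat lower, and Ccl8 higher in 1 HFD mouse. Over all cells of a mouse, Ccl7 was at 481 and 674 CPM on chow, against 178 and 259 CPM on HFD (578 ± 137 against 218 ± 57.6, SD, n = 2 each). Ccl12 was at 444 and 636 CPM against 419 and 342 CPM. Both genes lay below both chow mice in both HFD mice, as did 21.4% of the 4955 genes tested. Ccl8 was at 79.1 and 142 CPM on chow, against 107 and 424 CPM on HFD, and the groups overlapped.

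The fitted log2 fold changes over all cells were -1.63 ± 0.23 (SE) for Ccl7, -0.73 ± 0.20 for Ccl12 and 1.03 ± 0.58 for Ccl8. Of these, Ccl7 passed an FDR of 1% in a fit that called 16.2% of all genes, a count from which nothing is read. It no longer passed without HFD 1 (-1.38) or without HFD 3 (-1.89), and Ccl8 turned to -0.24 without HFD 3. Ccl12 did pass with DESeq2 (-0.72) or without chow 9 (-0.97). In such sums, fewer cells of a type and less RNA per cell cannot be told apart, and the share of C1q-high cells fell from 79.6% and 87.8% on chow to 34.4% and 28.1% on HFD beside them. The share of all sorted cells with a UMI of any member was 50.3% and 65.4% on chow and 35.9% and 39.5% on HFD.

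Within C1q-high cells, Ccl8 was higher on HFD in level, in share of cells and in UMIs per positive cell. It was at 92.0 and 151 CPM on chow, against 271 and 1099 CPM on HFD (121 ± 41.6 against 685 ± 586, SD, n = 2 each), a ratio of the means of 5.64. The share of C1q-high cells with a Ccl8 UMI was 10.97% (95% exact Clopper-Pearson interval 8.78% to 13.5%) and 14.6% (13.0% to 16.3%) on chow, and 20.8% (16.5% to 25.6%) and 33.8% (29.4% to 38.5%) on HFD. These intervals cover counting error only. With each cell thinned to 1500 UMIs, the shares were 5.79% and 9.01% against 14.1% and 20.8%, and both HFD mice remained above both chow mice. Cells with a UMI also held more of it, 3.84 and 4.29 UMIs on average on chow and 5.48 and 14.99 on HFD. The size of the difference rested on HFD 3. The fitted log2 fold change was 2.36 ± 0.49 (SE) with all mice and 1.06 without HFD 3.

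Ccl12 and Ccl7 differed in how many cells held them and in how much each held. Ccl12 was at 512 and 683 CPM on chow, against 929 and 767 CPM on HFD in C1q-high cells, with a UMI in 36.9% and 42.2% of cells against 34.6% and 35.4%. Its positive cells held 6.34 and 6.71 UMIs on average on chow and 11.3 and 9.98 on HFD. The level was thus higher and the share of cells lower on HFD, and the thinned shares overlapped, at 24.9% and 27.7% against 25.9% and 22.6%. With all cuts doubled the shares turned, to 38.7% and 42.4% on chow and 47.3% and 46.9% on HFD. Without the 5 C1q-high cells of each mouse with most Ccl12, an alternative chosen after seeing the data, the levels were 404 and 630 CPM on chow, against 506 and 512 CPM on HFD, which overlap. These 5 cells are a larger part of the 332 and 435 C1q-high cells on HFD than of the 720 and 1757 on chow. The step thus takes more from HFD, and no diet difference is read from it.

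Ccl7 in C1q-high cells was at 505 and 692 CPM on chow, against 398 and 560 CPM on HFD, which overlap, but fewer cells held it. Without the 5 C1q-high cells of each mouse with most Ccl7, the levels were 340 and 619 CPM on chow, against 166 and 330 CPM on HFD, which do not overlap. The 5 cells are again a larger part of the C1q-high cells on HFD, so no diet difference is read from these levels. The share of all genes with this order was not counted. The share with a Ccl7 UMI was 29.7% (26.4% to 33.2%) and 45.4% (43.1% to 47.8%) on chow and 19.3% (15.2% to 23.9%) and 25.3% (21.3% to 29.6%) on HFD. Thinned, it was 17.2% and 27.7% against 11.5% and 14.1%. Its positive cells held 7.77 and 6.31 UMIs on average on chow and 8.69 and 10.2 on HFD.

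Of the 3 members fitted in C1q-high cells, Ccl8 passed an FDR of 1% and Ccl12 (0.39 ± 0.17, SE) and Ccl7 (-0.44 ± 0.19) did not, against 8.82% of 5103 genes, from which nothing is read. Ccl8 did not pass without HFD 3 (1.06), with DESeq2 (2.38), or with all cuts halved (2.03) or doubled (2.91). Ccl7 did pass without chow 9 (-0.64) and Ccl12 with cuts doubled (1.04), where Ccl7 turned to 0.19. Ccl8 and Ccl12 had both HFD mice above both chow mice in CPM, as did 38.1% of those genes. Beside these values, the summed monocyte markers of C1q-high cells were at 301 and 436 CPM on chow, against 1974 and 2387 CPM on HFD, and the resident markers at 24519 and 25960 against 20355 and 19074 CPM. Most of the resident sum was C1qa, C1qb and C1qc, which define these cells. Cd81 was at 3234 and 3687 against 1404 and 1055 CPM and Mrc1 at 289 and 366 against 122 and 78.3 CPM. The other measured resident markers outside the cut were also lower in both HFD mice. The 6 dendritic cell markers summed to 46.5 and 44.9 against 125 and 139 CPM. Most of this rise was Ccr7 (11.8 and 10.6 against 89.5 and 101 CPM), and Clec9a also rose (0.911 and 2.20 against 3.58 and 11.5 CPM). Cd209a, Flt3, Zbtb46 and Xcr1 overlapped between diets. The part of these markers in the members' values was not tested. In the remaining C1q-high cells, without Lyve1, Cd163 or Cd4, Ccl8 was at 58.1 and 124 CPM on chow, against 246 and 932 CPM on HFD. Ccl7 overlapped there, at 343 and 576 against 376 and 516 CPM. In Cd4+ C1q-high cells Ccl7 was at 642 and 884 CPM in the 25 and 24 cells of the HFD mice, where 1 cell held 56 of 70 UMIs and 1 cell 66 of 114, and at 504 and 471 CPM on chow. The shares of these cells with a Ccl7 UMI overlapped, at 24% and 50% on HFD and 33.5% and 44.9% on chow. Ccl8 was at 174 and 3545 against 156 and 98.4 CPM.

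**Figure D4:**
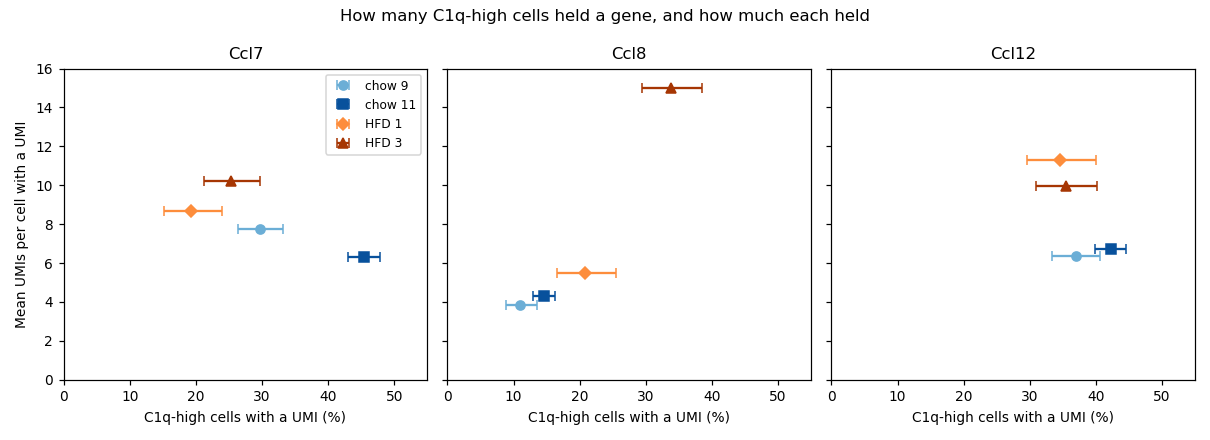
Mean UMIs per C1q-high cell with a UMI (y axis) against the percent of C1q-high cells with a UMI (x axis, bars: 95% exact Clopper-Pearson intervals) for Ccl7, Ccl8 and Ccl12, 1 point per mouse. HFD mice had fewer Ccl7-positive cells (19.3% and 25.3% against 29.7% and 45.4%), more Ccl8-positive cells, and more Ccl12 UMIs per positive cell (11.3 and 9.98 against 6.34 and 6.71).

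The mixture of the members in C1q-high cells shifted accordingly. Ccl7 made up 45.1% and 45.2% of the members' UMIs on chow and 24.8% and 23.0% on HFD. Ccl8 made up 8.22% and 9.87% on chow and 16.9% and 45.2% on HFD. Ccl12 was at 45.7% and 44.7% on chow and at 57.9% and 31.6% on HFD, so it was the largest share in HFD 1 and Ccl8 in HFD 3. The share of C1q-high cells with any member was 58.8% and 68.5% on chow and 52.1% and 60.0% on HFD, which overlap.

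In C1q-mid cells, Ccl7 was at 1121 and 971 CPM on chow, against 34.1 and 184 CPM on HFD. In chow 9, 7 of 45 cells held its 155 UMIs, 69 of them in 1 cell, and in chow 11, 41 of 109 cells held 283 UMIs, 89 of them in 1 cell. In HFD 3, 1 cell held 85 of 155 UMIs. The share of cells with a Ccl7 UMI overlapped between diets, at 15.6% and 37.6% on chow and 10.9% and 19.1% on HFD. Thinned to 1500 UMIs per cell it did not overlap, at 18.8% and 22.9% against 3.92% and 9.55%. Thinning left out shallower cells, 13 of 45 and 39 of 109 on chow and 35 of 137 and 36 of 235 on HFD. The fitted log2 fold change was -3.33 ± 0.47 (SE) and passed an FDR of 1%, as 2.35% of 4605 genes did in this class (18.3% had both HFD mice below both chow mice), while Ccl8 (0.24 ± 0.66) and Ccl12 (0.61 ± 0.39) did not, and nothing is read from that count. Ccl7 did not pass with DESeq2 (-3.42), without chow 9 (-3.18) or without chow 11 (-3.45). The high Igha and Jchain counts of these chow cells moved with it, as did the summed monocyte markers (1693 and 4642 CPM on chow, 6699 and 7685 CPM on HFD) and resident markers (8089 and 7247 against 5546 and 5718 CPM), and their part in the result was not tested. Without the 3 and 6 chow cells with at least 100 Igha and Jchain UMIs per 10000, an alternative chosen after seeing the data, Ccl7 was at 1300 and 1084 CPM on chow.

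In Ly6c2+ MHC II-low cells none of the 3 members passed an FDR of 1% (1.19% of 4547 genes did), and in C1q-low cells without Ly6c2 neither Ccl7 nor Ccl12 did (3.38% of 4206 genes). Ccl12 in Ly6c2+ MHC II-low cells had both HFD mice just above both chow mice, at 87.6 and 64.0 against 14.3 and 63.3 CPM, as did 29.6% of genes. In Ly6c2-negative C1q-low cells, both HFD mice were above both chow mice for Ccl12 (50.9 and 57.3 against 27.8 and 42.1 CPM) and below them for Ccl7 (34.0 and 57.3 against 89.1 and 75.8 CPM), against 29.6% and 20.4% of genes. The summed level of 6 dendritic cell markers in these cells was 323 and 160 CPM on chow, against 951 and 664 CPM on HFD, mostly Cd209a and Ccr7 with Zbtb46 and Clec9a at 0 on chow. The resident markers there were at 1548 and 2130 against 626 and 823 CPM, and the part of either list in the result was not tested. The diet effect in C1q-high minus that in Ly6c2+ MHC II-low cells was fitted as 1.15 ± 0.91 (SE) for Ccl8, -0.51 ± 0.40 for Ccl12 and -0.07 ± 0.32 for Ccl7, as a description, in a fit that called 0.967% of genes.

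A small number of cells held much of each chemokine. The 1% of cells with most UMIs of the 4 genes together held 27.5% and 18.9% of those UMIs on chow and 42.2% and 44.0% on HFD. This 1% is of all sorted cells, and C1q-high cells were 79.6% and 87.8% of these on chow and 34.4% and 28.1% on HFD. It is therefore a larger part of the C1q-high cells on HFD, and the diets are not compared by it. A single cell of HFD 3 held 425 of them, 7.40% of that mouse's total. For Ccl8, 8 and 22 cells on chow and 9 and 13 cells on HFD held 50% of the gene's UMIs in their mouse.

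The same cells tended to hold several members. Among C1q-high cells with a Ccl7 UMI, 40.2%, 50.5%, 56.3% and 51.8% in chow 9, chow 11, HFD 1 and HFD 3 also had Ccl12, against 35.6%, 35.3%, 29.5% and 29.8% of those without Ccl7. Among C1q-high cells with a Ccl8 UMI, 53.2%, 57.8%, 24.6% and 38.1% had Ccl7, against 26.8%, 43.3%, 17.9% and 18.8% of those without. With cells thinned to 1500 UMIs the direction was the same in all 4 mice for the 3 pairs of Ccl7, Ccl8 and Ccl12. Ccl2, where it occurred, was found more often beside Ccl7 and Ccl12, as 65.4% and 68.0% of the 26 and 25 Ccl2-positive C1q-high cells of the chow mice had Ccl7, against 28.4% and 45.1% of the others.

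C1q-high cells with at least 10 UMIs of a member shared further genes. Genes are ranked by the lowest of the log2 ratios of the 4 mice, high-producing cells over all other C1q-high cells. For the 216 Ccl7 high producers the leading genes included Ccl8 (1.53 to 3.07 over the mice), Iigp1 (1.47 to 3.91), an interferon-inducible GTPase, Pf4 (1.41 to 2.61), Ccl12 (1.39 to 3.83) and Mrc1 (0.92 to 1.87), the mannose receptor of tissue macrophages. For the 254 Ccl12 high producers they included Ccl7 (2.03 to 4.28), the interferon-induced genes Ifit3 (1.71 to 2.30), Iigp1 (1.05 to 2.15) and Isg15 (0.81 to 1.55), and Ccl8 (0.99 to 2.41). For the 91 Ccl8 high producers they were Ccl7 (2.12 to 3.40), Pf4 (1.20 to 2.52), Igf1 (1.11 to 2.82), Maf (1.10 to 1.97) and Il10 (1.04 to 2.05). Only 6 of these Ccl8 cells came from chow 9. The cells were picked by a member's count, and the ratios are a description.

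Over the 18 sums per mouse and class, the genes most like each member in log2(CPM + 1) were ranked by Pearson's r. The sums share mice and classes, and r is a description. Ccl8 was most like Gbp2b (r = 0.95), a guanylate-binding protein gene induced by interferon, then Ccl12 (0.83), Clta (0.83), Gm10134 (0.81) and Ctss (0.81). Ccl12 was most like Lair1 (0.91), an inhibitory collagen receptor, followed by Hebp1 (0.89), Apol7c (0.89), F11r (0.88) and C1qb (0.87). Ccl7 was most like Pmp22 (0.89), Lmna (0.88), Fcrls (0.87), Ctsb (0.86) and Mrc1 (0.85). Ccl2 was most like Rftn1 (0.76), Aph1a (0.74), Mgat5 (0.73), Tent2 (0.72) and Atp13a2 (0.71), on levels of at most 36.2 CPM. Among the members, r was 0.83 for Ccl8 and Ccl12, 0.60 for Ccl7 and Ccl12, 0.36 for Ccl7 and Ccl8, and between -0.22 and 0.26 for Ccl2 with the others.

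The other genes of the pathway were followed in a list of 65 receptors, chemokines, regulators and adhesion genes, of which 61 were in the matrix. In C1q-high cells, 50 were tested, and on HFD 5 rose and 16 fell at an FDR of 1% (edgeR, quasi-likelihood, Benjamini-Hochberg adjusted over all genes). Of all 5103 genes tested, 4.62% rose and 4.19% fell. Their median log2 fold change was -0.47, against -0.03 over all genes tested. The list was chosen with earlier results known.

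The receptor Ccr2 was higher in Ly6c2+ MHC II-low than in C1q-high cells, opposite to Ccl7, Ccl8 and Ccl12. It was at 679, 906, 1126 and 916 CPM in the Ly6c2+ MHC II-low cells of chow 9, chow 11, HFD 1 and HFD 3 and at 209, 269, 444 and 379 CPM in their C1q-high cells, a log2 difference of -1.38 ± 0.14 (SE, adjusted p = 3.2e-06). The remaining classes were not in that fit, and in chow 9 and chow 11 its highest level was in the 3 and 18 Ly6c2+ MHC II-high cells, at 1697 and 1408 CPM. By diet, Ccr2 rose over all cells (0.93 ± 0.13, adjusted p = 0.0032), which no longer passed without HFD 1 (0.83) or without HFD 3 (1.06). Within classes it did not pass, with 0.66 ± 0.17 in C1q-high cells (adjusted p = 0.022), where it did pass without chow 11 (0.84). In Ly6c2+ MHC II-low cells it was at 0.25 ± 0.20, in C1q-low cells without Ly6c2 at -0.48 ± 0.23 and in C1q-mid cells at -0.30 ± 0.19. Cx3cr1, the fractalkine receptor of resident macrophages, was higher in C1q-high than in Ly6c2+ MHC II-low cells (1.81 ± 0.17, adjusted p = 1.5e-06). It fell on HFD in every class tested, by 1.38 in C1q-high, 2.60 in C1q-mid, 2.52 in Ly6c2-negative C1q-low and 1.84 in Ly6c2+ MHC II-low cells on the log2 scale. In C1q-mid cells the fall no longer passed without chow 11 (-2.66).

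Other chemokines moved in both directions. Of 10 tested in C1q-high cells, 2 rose, 5 fell and 3 did not pass. Cxcl9, an interferon-gamma-induced attractant of T cells, was at 8.81 and 25.1 CPM on chow, against 605 and 817 CPM on HFD (log2 fold change 5.17 ± 0.36, SE, adjusted p = 2.1e-05). Ccl5, an attractant of T cells and monocytes, went from 23.1 and 31.4 to 398 and 736 CPM (4.23 ± 0.29, adjusted p = 1.7e-05). For both genes, each HFD mouse was above each chow mouse. Pf4 fell from 2304 and 2150 to 613 and 355 CPM (-2.32 ± 0.23, adjusted p = 0.00012), and Cxcl1, a neutrophil attractant, from 1732 and 1522 to 506 and 447 CPM (-1.89 ± 0.15, adjusted p = 4.0e-05). The other 3 that fell were Ccl3 (-1.55), Ccl4 (-1.24) and Cxcl2 (-1.16).

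**Figure D5:**
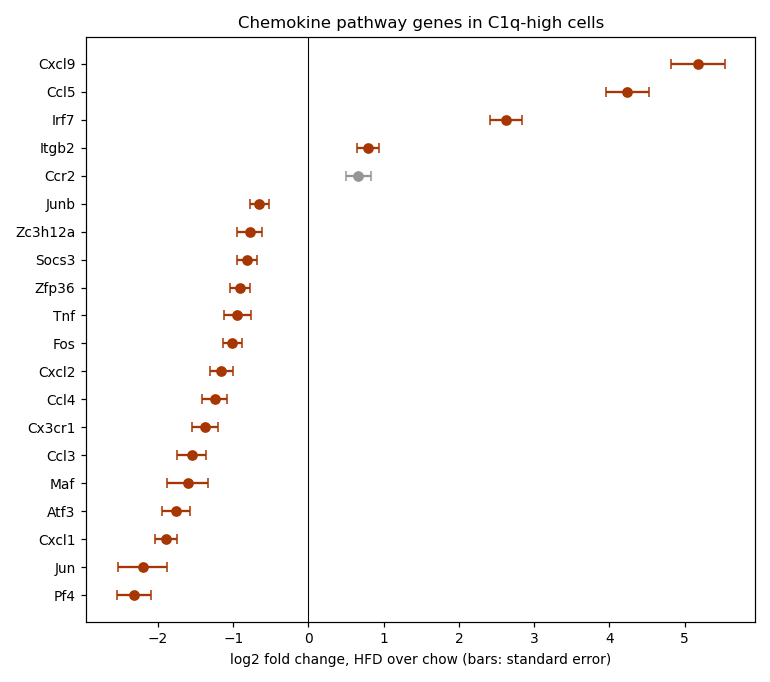
Log2 fold change, HFD over chow, in C1q-high cells (x axis, bars: standard error) of 19 list genes past an FDR of 1% and of Ccr2 (grey, adjusted p = 0.022). Cxcl9 (5.17) and Ccl5 (4.23) rose most, and Pf4 (-2.32) and Jun (-2.20) fell most.

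Some of these chemokines also moved in other classes. Cxcl9 rose in Ly6c2+ MHC II-low cells (5.82 ± 0.38, SE, adjusted p = 1.5e-09) and in Ly6c2-negative C1q-low cells (5.48 ± 0.40, adjusted p = 7.9e-13). Not past the FDR were Ccl4 in Ly6c2+ MHC II-low (-0.07) and Ly6c2-negative C1q-low cells (-0.42), and Cxcl2 (-0.49) and Ccl5 (4.93 ± 1.14, adjusted p = 0.019) in Ly6c2+ MHC II-low cells. In C1q-mid cells Cxcl9 was at 0 and 3.43 CPM on chow, against 1673 and 905 CPM on HFD, and Ccl17, a Ccr4 ligand, rose there from 7.23 and 6.86 to 235 and 291 CPM (5.06 ± 0.46, adjusted p = 9.5e-05). Ccl5 rose there too (5.17 ± 0.48, adjusted p = 0.00011). Without chow 11 none of these 3 passed in C1q-mid cells (4.97 for Ccl17 and 4.12 for Ccl5, with no Cxcl9 UMI left on chow). Ccl5 had no UMI in the Ly6c2-negative C1q-low cells of either chow mouse and was at 767 and 460 CPM on HFD, at least 61.0-fold higher when the floor is 3 counts over both chow sums. Pf4, Cxcl1 and Ccl3 fell in these 3 classes, to log2 fold changes of -4.11, -3.91 and -2.68 in C1q-mid cells, to log2 fold changes of -3.53, -4.28 and -1.61 in Ly6c2-negative C1q-low cells and to -3.23, -2.68 and -1.20 in Ly6c2+ MHC II-low cells. Among these calls, 2 depended on a mouse, that of Ccl3 in Ly6c2+ MHC II-low cells, lost without HFD 1 (-1.10), and that of Cxcl1 in C1q-mid cells, lost without chow 9 (-3.63) or chow 11 (-4.19).

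Between classes, 8 of 10 other chemokines tested were higher in C1q-high than in Ly6c2+ MHC II-low cells, 1 was lower and 1 did not pass. Of all 5067 genes tested in that fit, 10.4% were higher and 9.99% lower. Pf4 (4.80 ± 0.23, SE), Cxcl1 (4.09 ± 0.22), Cxcl16 (3.36 ± 0.17) and Ccl5 (3.06 ± 0.27) were the largest, with adjusted p from 1.0e-09 to 7.4e-07, and Ccl9 was lower (-1.86). Cxcl16 was at 1377 to 1601 CPM in the C1q-high cells of the 4 mice and at 110 to 196 CPM in their Ly6c2+ MHC II-low cells.

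Of 28 regulators of chemokine genes tested in C1q-high cells, 2 rose, 10 fell and 16 did not pass. Irf7, a transcription factor of the interferon response, rose from 28.9 and 28.2 to 150 and 231 CPM (2.63 ± 0.21, SE, adjusted p = 5.8e-05). Between classes, Irf7 was lower in C1q-high than in Ly6c2+ MHC II-low cells (-2.75 ± 0.40). The summed monocyte markers of C1q-high cells moved with it, from 301 and 436 to 1974 and 2387 CPM. Their part in the regulators' changes was not tested. The AP-1 genes Jun (-2.20), Fos (-1.01) and Junb (-0.65), the stress factor Atf3 (-1.76), the macrophage factor Maf (-1.60), Tnf (-0.95), and the feedback genes Zfp36 (-0.92), Socs3 (-0.82) and Zc3h12a (-0.78) fell. The call of Jun was lost without HFD 3 (-1.91). In Ly6c2+ MHC II-low cells Irf1 rose (2.40 ± 0.25, adjusted p = 1.8e-06). Il10, which encodes an anti-inflammatory cytokine, was higher in C1q-high than in Ly6c2+ MHC II-low cells (4.40 ± 0.27, adjusted p = 1.3e-08). Over all cells it fell on HFD (-2.72 ± 0.39, adjusted p = 0.0035), which did not pass without HFD 1 (-2.96) or HFD 3 (-2.45). Within classes Il10 did not pass, with -1.41 ± 0.32 in C1q-high cells (adjusted p = 0.013). In C1q-mid cells it was at -2.73 ± 0.52 (adjusted p = 0.0103).

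Of the adhesion and entry genes, 7 were tested in C1q-high cells, and Itgb2, the common beta chain of leukocyte integrins, rose (0.79) while 6 did not pass.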

How the data were processed

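Cells of 4 mice were sequenced with a droplet-based 3' kit, 1 well per mouse. According to the methods and the submitters' processing notes, the authors pseudo-aligned reads with kallisto 0.46.0 and counted molecules with bustools 0.39.2 (Ensembl transcripts, mm10), removed low-quality cells, low-abundance genes and cells other than macrophages and monocytes, and deposited raw UMI counts, not normalized. Of 11820 genes, 11819 were named from the GENCODE M21 annotation. Barcode suffixes gave each cell's mouse. The labels name separate mice.

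Counts were summed per mouse and class, and CPM are UMIs per 1000000 UMIs of the sum. Classes with at least 20 cells in every mouse, which leaves out Ly6c2+ MHC II-high cells, were tested with edgeR 4.0.16 (R 4.3.3; TMM, quasi-likelihood test, FDR 1%) on genes above 1 CPM in at least 2 sums and with a UMI in 5% of cells. Class differences had mouse as a term. The fits were tested on simulated data. Libraries held 3824228 to 7947893 UMIs, so 3 counts correspond to 0.377 to 0.784 CPM over a whole library. Scrublet (scanpy 1.11.5) marked 41 of 5420 cells (0.757%) as doublets, which were kept. Shares have exact Clopper-Pearson 95% intervals.

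The 4 genes, the classes, the lists and the rule for named genes were chosen with earlier results of these data known. Named were the 4 genes, Ccl11, the 5 genes most like each, Ccr2, Cx3cr1 and, per class, up to 6 list genes past the FDR with the largest change. Others were named after their values were seen. Alternatives were RLE factors, no filter, the likelihood-ratio test, DESeq2 1.42.0, cuts halved or doubled, doublets removed, each mouse left out, thinning, at least 2 UMIs and Spearman correlation. Leaving out top cells or cells rich in Igha and Jchain was added after seeing the data. List genes without counts in the matrix were not analysed here, and some list genes that were counted are not reported by name. No protein sequences were used here.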

Additional observations from a re-analysis of the deposited data

Results flagged for a closer look

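The diet effect differed between C1q-high and Ly6c2+ MHC II-low cells for 4 of the list genes reported here, by the interaction term in edgeR (quasi-likelihood, FDR 1%) (HFD over chow in C1q-high minus the same in Ly6c2+ MHC II-low cells, log2). Irf7 differed by 2.63 ± 0.24 (SE, adjusted p = 2.2e-06), with 760 and 434 CPM on chow, against 473 and 733 CPM on HFD in Ly6c2+ MHC II-low cells, where it was high on both diets. Irf1 differed by -2.03 ± 0.27 (adjusted p = 0.00020), and it went from 90.9 and 102 to 528 and 577 CPM in Ly6c2+ MHC II-low cells but from 86.3 and 133 to 160 and 152 CPM in C1q-high cells. Socs3 differed by -1.66 ± 0.19 (adjusted p = 2.4e-05) and was at 454 and 434 CPM on chow, against 881 and 806 CPM on HFD in Ly6c2+ MHC II-low cells, and at 1064 and 1040 against 678 and 616 CPM in C1q-high cells. Atf3 differed by -1.41 ± 0.25 (adjusted p = 0.0031). Without HFD 3 none of the 4 passed, at 2.67 for Irf7, -1.89 for Irf1, -1.63 for Socs3 and -1.03 for Atf3. The call of Atf3 was also lost without chow 11 (-1.14).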

How the results depend on the processing

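No paired analysis was possible because the diet groups share no replicate numbers; the class difference has mouse as a term. With 2 mice per diet, the counts of genes past the FDR moved with the settings and the cause was not tested. Called genes were 54 in Ly6c2+ MHC II-low cells (122 without the filter, 105 by the likelihood-ratio test, 12 with cuts halved, 43 to 117 with a mouse left out), 142 in Ly6c2-negative C1q-low cells (56 by DESeq2, 43 with cuts halved, 65 to 144 with a mouse left out), 108 in C1q-mid cells (339 without the filter, 277 by the likelihood-ratio test, 633 with cuts doubled, 20 to 46 with a mouse left out), 450 in C1q-high cells (771 without the filter, 97 with cuts doubled, 121 to 663 with a mouse left out) and 805 over all cells (1218 without the filter, 1307 by the likelihood-ratio test, 119 to 811 with a mouse left out). They were 1031 between classes (666 to 916 with a mouse left out) and 49 for the difference of the diet effect (112 without the filter, 130 by the likelihood-ratio test, 28 with cuts doubled, 6 to 49 with a mouse left out).

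Of the alternatives for named genes, 705 kept direction and call, 44 lost the call, 9 gained it and 12 turned. With cuts halved, Ccl7 in Ly6c2+ MHC II-low cells turned to 0.27 and the diet difference of Cx3cr1 between classes to -0.53. With cuts doubled, Ccl12 in C1q-mid cells turned to -1.27, Ccr2 there to 0.31, Ccl7 in C1q-high cells to 0.19, and the differences between classes of Ccl7 and Ccl12 to 0.42 and 0.40. With a mouse left out, Ccl7 in Ly6c2+ MHC II-low cells ranged from -0.95 to 0.40 (turned without chow 11), Ccl8 in C1q-mid cells from -0.38 (turned without chow 9) to 7.73 and Ccl8 over all cells from -0.24 (turned without HFD 3) to 1.71. The diet effect in C1q-high minus that in Ly6c2+ MHC II-low cells ranged from -0.65 to 0.20 for Ccl7 (turned without chow 9) and from -5.28 (turned without chow 11) to 1.96 for Ccl8. The 7.73 and -5.28 are fitted against chow 9 alone, which had no Ccl8 UMI in C1q-mid and Ly6c2+ MHC II-low cells, and depend on the prior count.

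The share of C1q-high cells with a UMI, HFD minus chow in percentage points, was -1.22 for Ccl2 (-0.012 with at least 2 UMIs), -15.3 for Ccl7, 14.5 for Ccl8 (23.1 with cuts doubled) and -4.57 for Ccl12 (-7.79 with cuts halved, 6.52 with cuts doubled). Without the 5 top cells of each mouse, the log2 ratio of mean CPM in C1q-high cells moved from -0.32 to -0.95 for Ccl7 and from 0.50 to -0.023 for Ccl12. The 5 cells were a larger part of the C1q-high cells on HFD than on chow, so these ratios move towards lower HFD levels in part by the rule. By Spearman correlation 1 of the 5 genes most like Ccl2, Ccl7 and Ccl12 each and 3 of those most like Ccl8 were still among the first 5. Depth limits Ccl2, at 22 to 44 UMIs per mouse, and all members in C1q-low cells.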
